A study of Mus musculus with 6 samples.

Results

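Interferon response and class I antigen presentation genes were followed in Gli1-lineage cells of the adult mouse ovary. The 40 genes were taken from a list of the interferon pathway and of the class I presentation machinery. Of these, 38 had at least 1 probe set of their own among 18193 such genes on the array, and 34 of 11703 genes passed the floor on low signal and were tested. The Mesonephros_theca group held 3 samples of cells labelled before birth, with tamoxifen given on E12.5, on E14.5 and again on E16.5 (embryonic days), which the labels call mesonephros-derived. The Ovary_theca group held 3 samples of cells labelled after birth, on days 1 to 3, by tamoxifen passed on in the milk of the dam, and is called ovary-derived. All samples came from 2-month-old female mice of strain 129S6/SvEvTac carrying Gli1-CreERT2 and Rosa-LSL-tdTomato, and tdTomato-positive cells were sorted from dissociated ovaries. The label marks any cell that had Gli1 activity at the time of tamoxifen, not a single cell type, and origin and labelling time cannot be told apart. The sources used here do not say whether animals were pooled.

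Type I interferons bind a receptor of the chains Ifnar1 and Ifnar2. Kinases bound to it, Jak1 among them, activate a complex that contains Stat2 and Irf9, which binds the interferon-stimulated response element and switches on antiviral genes. Interferon gamma induces Irf1 and raises the class I pathway. In that pathway the immunoproteasome subunits Psmb8, Psmb9 and Psmb10 cut proteins, Tap1 and Tap2 carry the peptides into the endoplasmic reticulum, Tapbp holds the empty class I molecule beside them, and B2m with a heavy chain such as H2-K1 or H2-D1 presents the peptide. Many cells express these genes at a basal level, and macrophages and other immune cells of the ovary express several of them more strongly.

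Promoter sequences from RefSeq (GRCm38.p6) are shown for Psmb9, Tap1 and Ifit1, which were more than 4-fold under the ovary-derived mean on 1 mesonephros-derived array, and for Bst2, which had the smallest p between the groups. Psmb8 and Usp18 were also more than 4-fold under that mean and are not shown. The Psmb8 window held 0 matches to the motif, and no Usp18 window was used here. Psmb9 and Tap1 are neighbours on chromosome 17, and run in opposite directions with 225 bases between their starts, so the first sequence lies before both. The others end at the base before the start of transcription. Capitals mark matches, on either strand, to the core of the interferon-stimulated response element (GAAANNGAA, or TTCNNTTTC on the other strand). Matches may overlap, so a longer run of capitals holds more than 1.
Psmb9 and Tap1, chr17:34187331-34187555, plus strand: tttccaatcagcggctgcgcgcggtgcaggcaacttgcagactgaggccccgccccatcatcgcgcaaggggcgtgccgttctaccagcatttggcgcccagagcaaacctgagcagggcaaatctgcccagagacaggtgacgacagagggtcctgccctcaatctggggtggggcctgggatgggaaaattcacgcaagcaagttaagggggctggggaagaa
Ifit1, chr19:34640770-34640888, plus strand: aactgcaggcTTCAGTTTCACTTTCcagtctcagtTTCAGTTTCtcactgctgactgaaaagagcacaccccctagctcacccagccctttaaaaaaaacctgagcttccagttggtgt
Bst2, chr8:71537473-71537612, minus strand: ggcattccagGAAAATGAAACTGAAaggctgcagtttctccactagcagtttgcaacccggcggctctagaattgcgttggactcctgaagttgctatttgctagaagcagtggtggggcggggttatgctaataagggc

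The Ifit1 stretch held 3 response element matches, the Bst2 stretch held 2, and the interval between Psmb9 and Tap1 held 0. Windows from 250 bases before to 50 after the start were used for 33 of the 40 genes. The response element core occurred in 15 of the 33 (45.5%), against 9.76% of 27025 genes with such a window. These are matches of letters and were not tested as binding sites.

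The cells carried theca and stroma transcripts on every array. All 7 measured markers of that list stood above the floor of 99.4 signal units on all 6 arrays, and their summed signal was 60360 to 70244 in mesonephros-derived and 36226 to 38074 in ovary-derived samples. The markers differed among themselves, with 5 higher and 2 lower in mesonephros-derived cells on the log2 scale. Acta2 averaged 27823 against 11725 in ovary-derived cells, and Cyp17a1 averaged 7537 against 1112. Pdgfra averaged 5493 against 5534, and Gli1 was lower at 376 against 583. Over the whole table, mesonephros-derived replicate 1 correlated at 0.844 and 0.876 with its own group and at 0.871 to 0.875 with the ovary-derived arrays. The poly-A spikes, RNAs put in ahead of labelling, read 11.2-fold, 10.3-fold and 2.12-fold over their mean of the ovary-derived arrays in mesonephros-derived replicates 1, 2 and 3. In the ovary-derived replicates they read 0.609-fold to 1.61-fold. Their part in the results was not tested beyond a fit that holds this signal as a covariate. Every mesonephros-derived array read above every ovary-derived one, so that fit cannot fully separate the spikes from the group. A smaller change in it does not show that the spikes account for a difference.

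In the comparison of the groups, 0 of the 34 genes passed an adjusted p of 0.05 (limma), where 0.0427% of all genes tested did. At an unadjusted p of 0.05 there were 5 of 34 (14.7%), against 13.7% of all genes. In 8 of 34 (23.5%) the groups did not overlap, against 22.2% of all genes. Of the 34, 22 were lower in mesonephros-derived cells (64.7%), against 56.5% of all genes, and 17 were lower after median centring of the arrays. The median log2 change, mesonephros-derived minus ovary-derived, was −0.16, against −0.08 over all genes tested. Split by function, the median was −0.04 over 25 interferon genes and −0.57 over 9 class I genes, 7 of which were lower. Without mesonephros-derived replicate 1 the class I median was −0.31, with 8 of 9 lower, and the interferon median was 0.18. The median over the 11665 genes tested without that array was −0.045. The shares at an unadjusted p and without overlap lay near those of all genes. In bulk samples, fewer cells of a type and less RNA per cell cannot be told apart.

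The median fell on the other side of 0 without mesonephros-derived replicate 1. On that array 13 of 34 genes (38.2%) lay more than 2-fold under the ovary-derived mean, against 16.6% of all genes tested. The counts were 2 on replicate 2 and 0 on replicate 3, against 11.4% and 3.46% of all genes. Replicate 1 was the lowest of the 6 arrays for 21 members (61.8%), against 32.1% of all genes. Without it, on the same probe sets, 16 members were lower and 18 higher, with a median of 0.07.

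**Figure D1:**
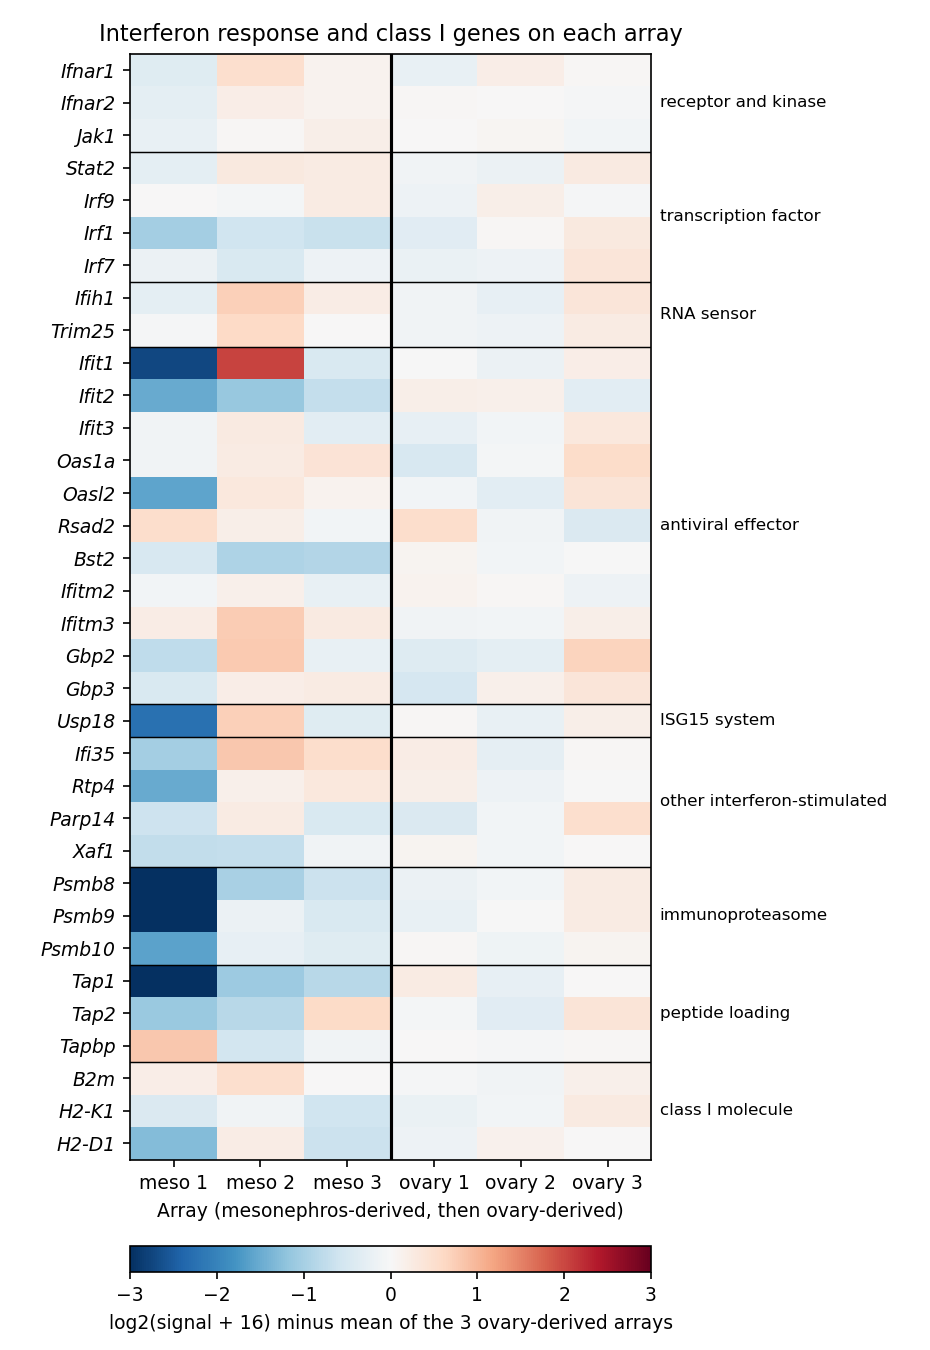
Signal of the 34 tested genes on each array, as log2(signal + 16) minus the mean of the 3 ovary-derived arrays, with mesonephros-derived arrays on the left and genes grouped by role; colours are cut at 3 log2 units on either side. Dark blue cells lie mainly in mesonephros-derived replicate 1, where 13 genes were more than 2-fold below the ovary-derived mean.

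The receptor chains and their kinase had log2 changes near 0. Ifnar1 had signals of 650, 1197 and 903 in mesonephros-derived and 719, 963 and 854 in ovary-derived replicates 1, 2 and 3, a log2 change of 0.08 ± 0.29 (SE). Ifnar2 had 1388, 1979 and 1848 against 1746, 1709 and 1670 in ovary-derived cells, a change of 0.01 ± 0.21. Jak1 had 2138, 2547 and 2812 against 2542, 2601 and 2378 in ovary-derived cells, a change of −0.01 ± 0.19. The groups overlapped for all 3 genes, and limma's adjusted p lay between 0.915 and 0.988. Other probe sets of these genes were lower in mesonephros-derived cells, at −0.29 for Ifnar1, −0.26 and −0.04 for Ifnar2, and −0.60 and −0.31 for Jak1. The Jak1 probe set at −0.60 had no overlap, at 1182, 1486 and 1792 against 2188, 2531 and 1981 in ovary-derived cells.

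Of 4 transcription factors tested, Irf1 was the only member whose groups did not overlap. Irf1, which is induced by interferon gamma and drives class I genes, had 952, 1271 and 1209 in mesonephros-derived and 1533, 1992 and 2400 in ovary-derived replicates. Every mesonephros-derived array lay below every ovary-derived one. The means were 1144 ± 169 and 1975 ± 433 (SD, n = 3 each), 1.70-fold lower on the log2(signal + 16) scale used for all folds between the groups, and the log2 change stood at −0.77 ± 0.24 (SE; adjusted p = 0.274 in limma). Without mesonephros-derived replicate 1 the change was −0.64. Stat2 had 395, 607 and 585 against 458, 435 and 591 in ovary-derived cells. Irf9, its DNA-binding partner, had 615, 585 and 719 against 546, 685 and 593 in ovary-derived cells. Both overlapped, with changes of 0.08 ± 0.30 and 0.07 ± 0.26. Irf7, which amplifies the type I response, was dim at 221, 179 and 227 against 218, 224 and 328 in ovary-derived cells, and it overlapped too, with a change of −0.26 ± 0.36.

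Antiviral effectors went in both directions, 3 higher and 8 lower of 11 tested. Bst2, tetherin, which holds budding virus at the cell surface, had 2106, 1547 and 1589 in mesonephros-derived and 3137, 2793 and 2899 in ovary-derived replicates. Its groups were well separated, and it had the smallest p of the 34 genes. The means were 1747 ± 311 and 2943 ± 177 (SD, n = 3), 1.69-fold lower, and the log2 change stood at −0.76 ± 0.20 (SE; adjusted p = 0.235 in limma). Over 21 alternative settings the change of Bst2 lay between −0.91 and −0.68. It did not rest on replicate 1, which had the highest Bst2 signal of the mesonephros-derived arrays.

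Ifit2, a protein that restrains translation, had 150, 199 and 277 in mesonephros-derived and 521, 512 and 367 in ovary-derived replicates. The groups did not overlap, with 2.18-fold lower signal (log2 change −1.12 ± 0.36 SE, limma adjusted p = 0.279), and the change was −0.31 in the fit with the spike covariate. Its neighbour Ifit1, which binds foreign RNA at the 5′ end, had 51.0, 1823 and 311 against 425, 381 and 496 in ovary-derived cells. The mesonephros-derived arrays thus held both the lowest and the highest Ifit1 signal, and the change was −0.39 ± 0.97, or 0.79 without replicate 1. Ifit3 overlapped at −0.05 ± 0.32. Of these 3 genes, only Ifit2 had groups that did not overlap.

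Ifitm3, a membrane protein that blocks virus entry, was among the brightest members, at 13028, 18954 and 13423 in mesonephros-derived and 10322, 10642 and 12706 in ovary-derived replicates. It was the only member without overlap on the higher side, 1 of 34 (2.94%) against 9.56% of all genes. On the log2 scale the change was 0.42 ± 0.19 (SE, limma adjusted p = 0.382), and it turned to −0.064 after quantile normalization and was 0.086 with the spike covariate. Ifitm2 differed by −0.04 ± 0.17. The 6 remaining effectors tested, Oas1a, Oasl2, Rsad2, Gbp2, Gbp3 and Ifit3, overlapped between the groups with changes from −0.39 to 0.20.

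On the lower side, 7 of 34 genes (20.6%) had no overlap, against 12.6% of all genes: Bst2, Irf1, Ifit2, Xaf1, Tap1, Psmb8 and Psmb10. Xaf1, an interferon-induced promoter of apoptosis, had 686, 705 and 1072 against 1219, 1098 and 1166 in ovary-derived cells (log2 change −0.52 ± 0.25 SE, limma adjusted p = 0.4). It went to 0.24 as the mean of its probe sets and to 0.063 with the spike covariate. Usp18, which removes Isg15 from proteins and damps the receptor, Rtp4, a chaperone of receptors, and Oasl2 are given because of their values on replicate 1, and were picked after those values were seen. Usp18 had 32.2, 361 and 161 against 219, 181 and 243 in ovary-derived cells. Rtp4 had 289, 953 and 1073 against 966, 776 and 847 in ovary-derived cells. Oasl2 had 264, 1017 and 888 against 778, 658 and 1074 in ovary-derived cells. Replicate 1 was lowest for all 3, while replicates 2 and 3 lay within or above the ovary-derived range, or in Usp18 just below it on replicate 3. The RNA sensor Ifih1 at 0.22 ± 0.35, the ubiquitin ligase Trim25 at 0.19 ± 0.22, Ifi35 at 0.10 ± 0.43 and Parp14 at −0.28 ± 0.37 all overlapped, and Ifi35 moved to 0.67 without replicate 1. For Ifi35, Trim25, Parp14 and Rtp4 a further probe set had the opposite sign, and that of Ifi35 at −1.01 and that of Parp14 at 0.82 had no overlap.

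**Figure D2:**
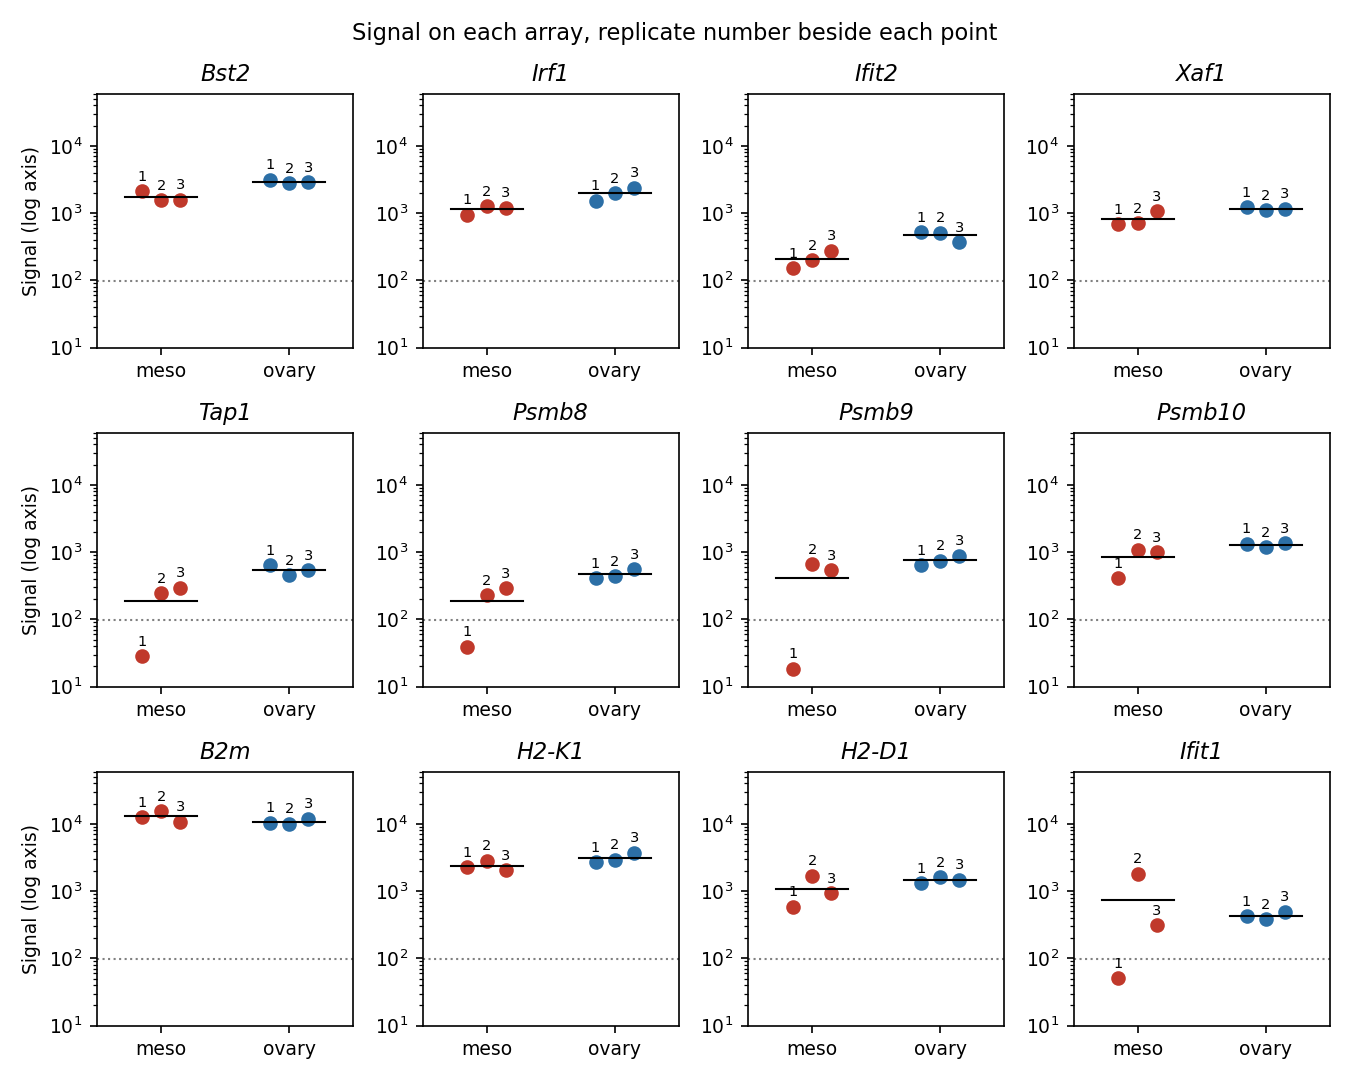
Signal on a log axis for 12 genes, mesonephros-derived left of ovary-derived, with the replicate number at each point, bars at the group means and a dotted line at the floor of 99.4. Mesonephros-derived replicate 1 lies below the floor for Tap1, Psmb8, Psmb9 and Ifit1, whereas B2m, H2-K1 and Bst2 stay within a narrow band.

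Of the 34 genes, the class I processing genes Tap1, Psmb9 and Psmb8 had the largest differences. Psmb8 had 39.1, 227 and 289 in mesonephros-derived and 409, 440 and 553 in ovary-derived replicates. All mesonephros-derived arrays were lower, and replicate 1 lay below the floor. On the log2 scale the change was −1.58 ± 0.61 (SE, 3.00-fold lower, limma adjusted p = 0.332), or −0.82 without replicate 1 and −0.39 with the spike covariate. Psmb9 had 18.5, 665 and 541 against 635, 743 and 882 in ovary-derived cells. Here replicate 2 lay inside the ovary-derived range. Its change of −1.69 ± 0.97 (adjusted p = 0.461) was −0.31 without replicate 1 and −0.02 with the spike covariate. Psmb10 had 411, 1084 and 1003 against 1326, 1173 and 1369 in ovary-derived cells, with no overlap. Its change was −0.74 ± 0.36 (adjusted p = 0.404), or −0.30 without replicate 1.

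The constitutive subunits that these replace in the proteasome did not share the low values of replicate 1. Psmb5, the counterpart of Psmb8, had 1526, 380 and 723 against 1230, 920 and 731 in ovary-derived cells. Psmb6, the counterpart of Psmb9, had 3222, 2570 and 2255 against 2823, 2308 and 2400 in ovary-derived cells. Psmb7, the counterpart of Psmb10, had 4747, 2868 and 2615 against 3886, 3083 and 2502 in ovary-derived cells. Replicate 1 was the highest of the 6 arrays for all 3 of them. Their changes were −0.32 ± 0.46, 0.08 ± 0.20 and 0.08 ± 0.27 (SE, limma adjusted p from 0.781 to 0.909). The difference between immune and constitutive subunits was not tested.

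Tap1, a transporter chain and neighbour of Psmb9, had 28.1, 246 and 297 in mesonephros-derived and 640, 452 and 543 in ovary-derived replicates. The groups did not overlap, and the pattern of replicate 1 followed that of Psmb9. On the log2 scale the change was −1.86 ± 0.69 (SE, 3.62-fold lower, limma adjusted p = 0.317), or −0.96 without replicate 1 and −0.31 with the spike covariate. Another Tap1 probe set past the floor did not share this, at 209, 335 and 152 against 223, 168 and 125 in ovary-derived cells, a change of 0.37. Tap2 was dim at 50.7, 64.1 and 198 against 122, 97.8 and 173 in ovary-derived cells, with a change of −0.46 ± 0.55, or −0.13 without replicate 1. Tapbp, tapasin, had 6138, 2390 and 3258 against 3530, 3419 and 3592 in ovary-derived cells, so that replicate 1 was the highest array, while another probe set had 336, 1147 and 1076 against 765, 1163 and 1239 in ovary-derived cells, with replicate 1 the lowest. The 2 probe sets of Tapbp thus disagreed on that array.

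The class I molecules overlapped between the groups in the probe sets that stood for them, but not in every other probe set of the heavy chains. B2m, the invariant light chain, had 12429, 15391 and 10829 in mesonephros-derived and 10429, 10002 and 11956 in ovary-derived replicates. Its change was 0.24 ± 0.18 (SE, limma adjusted p = 0.562) with overlap; it turned to −0.21 after quantile normalization and was −0.18 with the spike covariate, and a further probe set gave 0.24. H2-K1 had 2266, 2847 and 2035 against 2686, 2910 and 3726 in ovary-derived cells (−0.38 ± 0.21, adjusted p = 0.454). H2-D1 had 589, 1703 and 937 against 1318, 1600 and 1484 in ovary-derived cells (−0.57 ± 0.36, adjusted p = 0.495), or −0.21 without replicate 1. Class I heavy chains are nearly identical in sequence. The probe sets used for H2-K1 and H2-D1 carry the _x_at suffix, which marks probes that can match other genes, so these signals may be shared between heavy chains. Another H2-K1 probe set had no overlap, at 144, 1186 and 926 against 1398, 1455 and 1777 in ovary-derived cells, a change of −1.45, and a further one stood at −0.23. H2-K1 moved to −0.64 with probe sets averaged and to −0.87 with the spike covariate. The other H2-D1 probe sets past the floor stood at −0.79, without overlap, −0.90 and −0.081, the last being the value with _x_at probe sets left out. The average over all H2-D1 probe sets, dim ones included, gave 0.081.

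**Figure D3:**
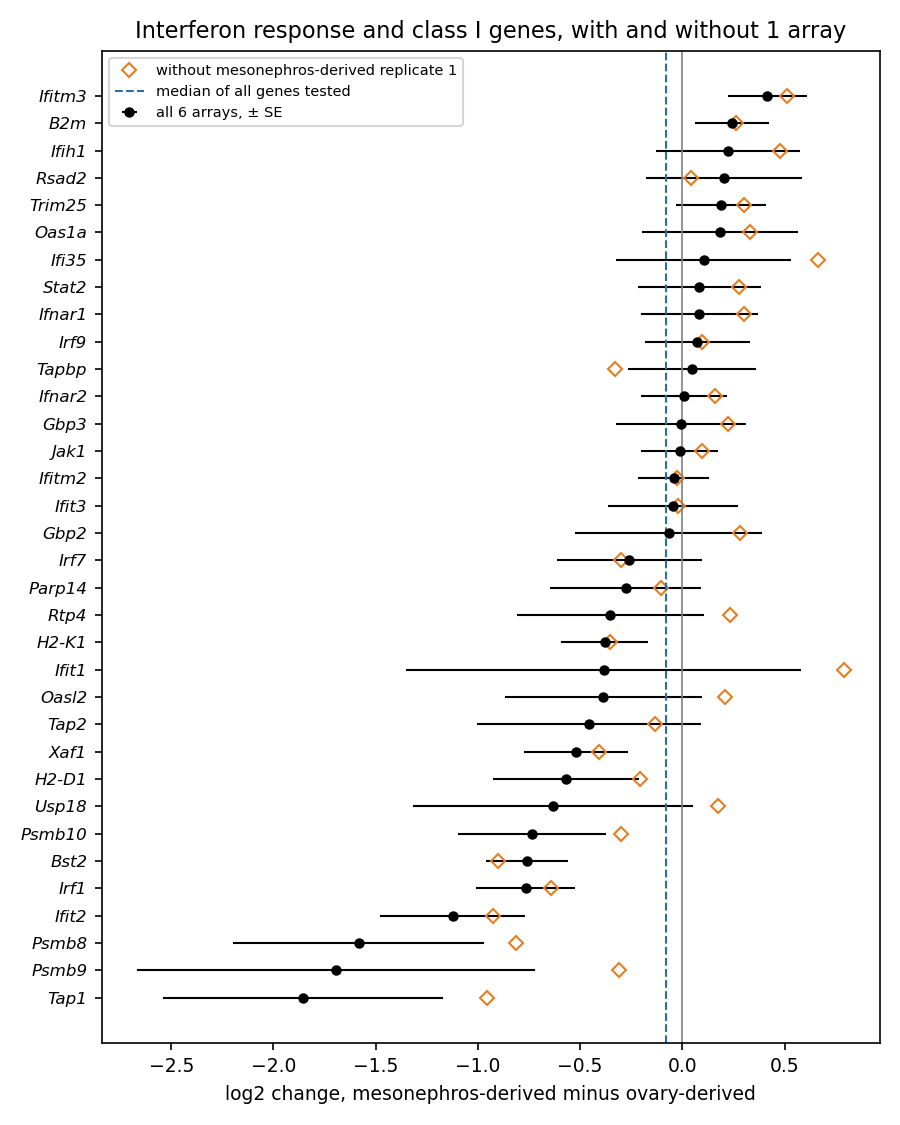
Log2 change of the 34 genes (mesonephros-derived minus ovary-derived, circles with SE bars from limma, n = 3 each) and the same without mesonephros-derived replicate 1 (open diamonds), with the median of all genes as a dashed line. Tap1, Psmb9 and Psmb8 move from −1.86, −1.69 and −1.58 to −0.96, −0.31 and −0.82 without that array, while Bst2, Irf1 and Ifit2 stay at −0.90, −0.64 and −0.93.

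The summed signals of myeloid and of class II markers were also lowest on mesonephros-derived replicate 1. The macrophage and myeloid list had 10 tested markers, all lowest on replicate 1. Fcgr1 and Itgam, whose means lay below the floor, were not tested and were not lowest there. On the log2 scale all 10 averaged lower in mesonephros-derived cells, against 56.5% of all genes, while the mean of the plain signals was higher for 5 of them and lower for 5. In limma 0 passed the adjusted p and 1 (10%) had an unadjusted p under 0.05, against 13.7% of all genes. Their summed signal was 1478, 17280 and 5394 in mesonephros-derived and 7860, 11023 and 6858 in ovary-derived replicates. Csf1r, the receptor that macrophages need, had 2.81, 615 and 461 against 1300, 1583 and 1060 in ovary-derived cells. On replicate 1, 7 of the 10 lay below the floor. On replicate 2, Csf1r lay below every ovary-derived array although the sum was the highest of the 6 arrays.

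The class II pathway, which presents peptides on professional antigen-presenting cells, was likewise lowest in summed signal on mesonephros-derived replicate 1 and highest on replicate 2. Its 4 tested genes summed to 773, 9304 and 2757 in mesonephros-derived and 3850, 4002 and 4466 in ovary-derived replicates. Replicate 1 was the lowest array for 3 of the 4. H2-Eb1 was lowest on replicate 3, at 463, 961 and 383 against 701, 647 and 938 in ovary-derived cells. Ciita and H2-DMa, whose means lay below the floor, were not tested. Replicate 1 was lowest for H2-DMa and not for Ciita. Cd74, the invariant chain, had 8.36, 4427 and 1060 against 1163, 1566 and 1455 in ovary-derived cells. Of the 34 genes, 21 (61.8%) shared the lowest array with these lists, against 32.1% of all genes, Psmb9, Usp18, Ifit1 and Irf1 among them. Usp18 and Ifit1 also shared the highest, as did other members such as Gbp2, Ifi35 and H2-D1. Bst2 and Irf1 did not share the highest array. Irf1 was lowest on replicate 1, and Bst2 was not. Endothelial markers summed to 3947, 7133 and 4262 against 9580, 9144 and 6280 in ovary-derived cells, with 8 of 9 tested markers (88.9%) lower on the log2 scale, against 56.5% of all genes. In limma 0 of the 9 passed the adjusted p, and 4 (44.4%) had an unadjusted p under 0.05, against 13.7% of all genes. Of these 4, Robo4 lay below the floor on every mesonephros-derived array, at 51.3, 96.6 and 63.4. Robo4 was tested only because of its ovary-derived signals of 337, 359 and 149. Kdr and Pecam1, also among the 4, lay below the floor on mesonephros-derived replicates 1 and 3. The groups did not overlap in 2 of the 9 (22.2%), against 22.2% of all genes. Of 7 lymphoid markers, 5 lay below the floor on all arrays, Cd3e and Ms4a1 among them. The lymphoid marker that was tested, Cd2, had 132, 324 and 112 against 98.5, 133 and 134 in ovary-derived cells, so it was not lowest on replicate 1. Of 4 genes listed for plasmacytoid dendritic cells, Siglech lay below the floor on all arrays, and Tcf4 and Irf8 lay above it on all. Bcl11a lay below it on mesonephros-derived replicate 1 only. Signal of these genes does not by itself show that such cells were present. The 3 tested granulosa markers summed to 5002 to 6232 against 4921 to 6422 in ovary-derived cells, with Foxl2 the brightest of them. Amh, whose mean lay below the floor, was not tested and is not in that sum. It had 511, 234 and 33.4 against 20.7, 28.1 and 34.7 in ovary-derived cells, so it stood above the floor on mesonephros-derived replicates 1 and 2 only. Fshr, below the floor on all 6 arrays, was not tested either. The part of these cell types in the differences of the interferon and class I genes was not tested.

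**Figure D4:**
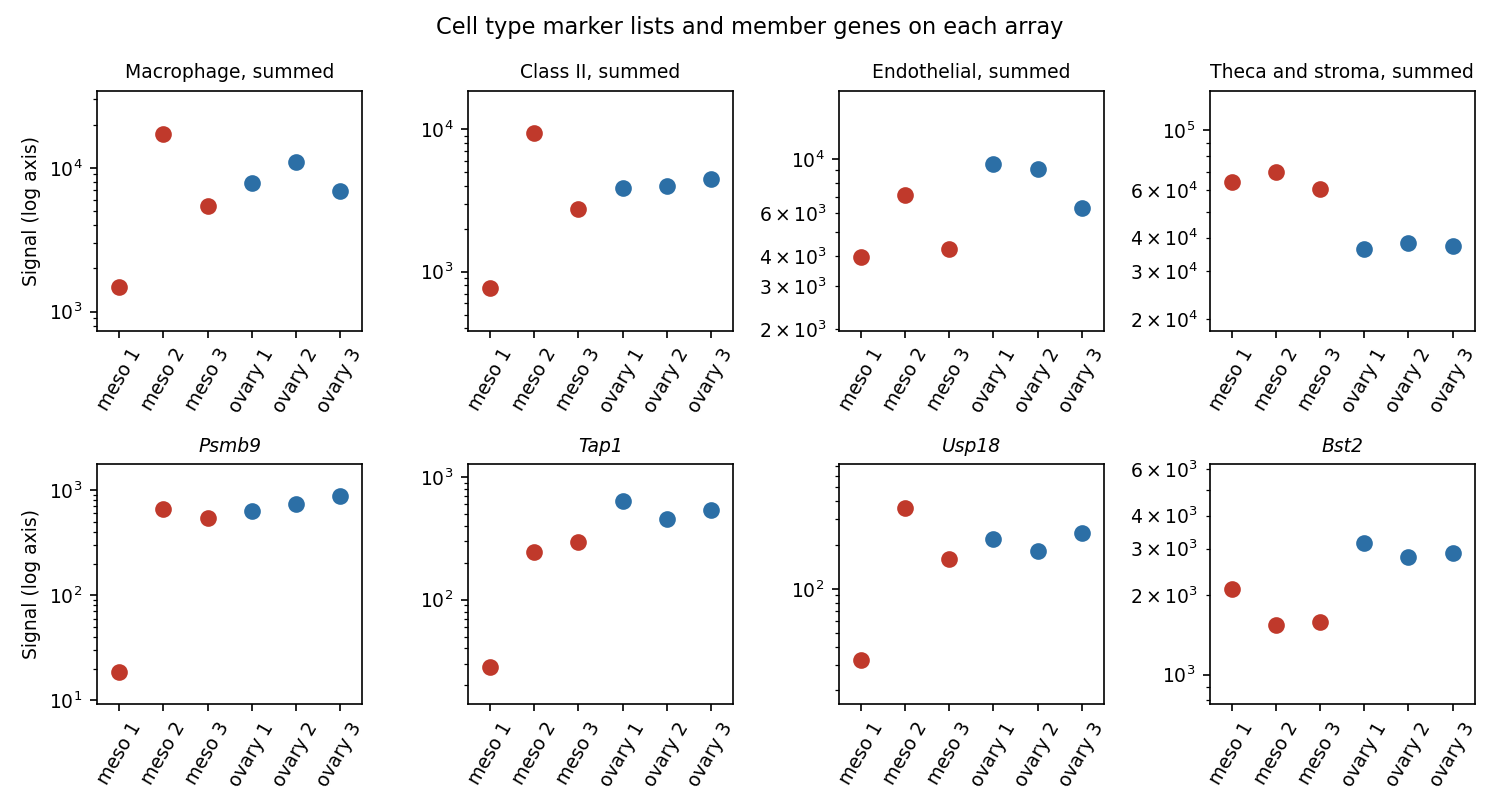
Summed signal of 4 marker lists (top) and signal of 4 genes (bottom) on each array, on log axes, mesonephros-derived arrays left of ovary-derived ones. Macrophage and class II sums are lowest on mesonephros-derived replicate 1 (1478 and 773) and highest on replicate 2 (17280 and 9304); Psmb9, Tap1 and Usp18 are lowest on replicate 1, and Bst2 is not.

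Other genes of the pathway gave 0 calls at limma's adjusted p, with 5 of 33 (15.2%), 1 of 16 (6.25%) and 1 of 12 (8.33%) at an unadjusted p of 0.05 in the 3 lists that follow, against 13.7% of all genes. Among 33 tested interferon-stimulated genes outside the 40, 12 were higher and 21 lower, with a median log2 change of −0.08, that of all genes. The smallest p-values belonged to Lgals3bp, a secreted galectin ligand, at 0.96 ± 0.21 (SE, limma adjusted p = 0.185), Parp12 at −1.14 ± 0.28 (0.218) and Cmpk2, a mitochondrial nucleotide kinase, at −1.65 ± 0.57 (0.300). Cmpk2 lay below the floor on mesonephros-derived replicates 1 and 2, at 54.0 and 40.4. The mean of that list stood at −0.67, 0.19 and −0.08 log2 units from that of the ovary-derived arrays for mesonephros-derived replicates 1, 2 and 3, so replicate 1 was again the lowest. Of 16 signalling genes and sensors, 7 were higher and 9 lower. The smallest p-values among these belonged to Tlr9, Socs3 and Mavs. The nucleic acid receptor Tlr9 stood at 1.41 ± 0.48 (SE, limma adjusted p = 0.291). The feedback inhibitor Socs3 stood at −1.26 ± 0.57 (0.367) and the adaptor Mavs at −0.68 ± 0.35 (0.414). Socs3 and Mavs overlapped between the groups, and Socs3 had 6723, 1729 and 1055 against 4809, 5071 and 7094 in ovary-derived cells. Tlr9 lay below the floor on every ovary-derived array, at 62.2, 52.6 and 91.6, and was tested only because of its mesonephros-derived signals of 174, 350 and 142. The interferon genes Ifnb1 and Ifng lay below the floor on all 6 arrays. Of 12 further class I pathway genes, 9 were lower, led by the chaperone calnexin, Canx, at −0.55 ± 0.21 and the lipid-presenting Cd1d1 at −0.57 ± 0.26, and the class I activator Nlrc5 stood at −0.78 ± 0.59.

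The members not tested were dim or had no probe set of their own. Dhx58, an RNA sensor, had 42.3, 146 and 63.7 in mesonephros-derived and 139, 87.3 and 116 in ovary-derived replicates. Oasl1 had 138, 64.9 and 49.7 against 64.8, 73.3 and 55.0 in ovary-derived cells. The antiviral GTPase Mx1 lay below the floor on every array, at 22.0, 57.9 and 24.9 against 52.8, 51.6 and 49.1 in ovary-derived cells. Mx2 had 107, 106 and 73.6 against 114, 106 and 87.8 in ovary-derived cells. All 4 lay below the floor in at least 1 array of each group, and signals near it have no reliable order. Isg15 and Ifi44 had no probe set that names them alone.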

How the data were processed

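Sorted Gli1-lineage cells gave 6 samples on 1-colour oligonucleotide arrays, 3 per group. Per the labels' protocols, RNA was amplified from a fixed volume, so input mass varied. The values deposited are linear intensity signals per probe set. The submitters' processing notes name MAS5; its settings were not found there. The trimmed mean (2% at each end) of every array was 500.0, and no further normalization was applied.

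The signals were moved to log2(signal + 16), so folds of dim genes are understated. Platform annotation named 34945 of 45037 probe sets with 1 symbol. The probe set with the highest mean stood for each gene, and genes under the 40th percentile of all probe sets (99.4) were not tested. The comparison used limma 3.58.1 in R 4.3.3 (eBayes with an intensity trend, Benjamini-Hochberg over all 11703 genes), after the script was tested on simulated data. Nothing in the labels says that replicates are separate animals; p-values reflect only how far these samples spread, which may be technical, and 3 arrays per group limit the precision. The genes and lists were chosen with earlier results of these data known. All 40 genes were accounted for, with values on every array for the 10 of smallest p and for fixed pathway genes; per-array values of other members were added after they were seen. For 14 tested genes another probe set passed the floor, and in 8 at least 1 went the opposite way. Alternatives covered the pseudocount, the floor, scaling, probe set choice, eBayes settings, weighting of arrays, an equal-variance test without moderation, a spike covariate, replicate blocks and each array left out.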

Additional observations from a re-analysis of the deposited data

Results flagged for a closer look

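Spike-in probe sets, which belong to no comparison of genes, read higher in mesonephros-derived samples. The mean poly-A spike signal was 7.87 times as high in mesonephros-derived as in ovary-derived samples.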

How the results depend on the processing

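Over 21 alternatives 0 of the 40 genes passed the threshold in limma or in the plain test, with 2 to 10 at an unadjusted p under 0.05. The 10 were of 34 (29.4%) without mesonephros-derived replicate 2, against 15.5% of all genes, and the 2 came with the spike covariate (5.88%, against 2.61%) and without ovary-derived replicate 1 or 3 (against 5.45% and 8.18%). The lowest adjusted p among 19 genes followed was 0.0605 (Bst2). Among all genes tested, 5 passed, against 129 with array weights, 8 with probe sets averaged per gene, 3 with a pseudocount of 1, 2 after median centring and 0 with eBayes without trend, the plain test or the poly-A spike covariate, where 1504, 1317 and 306 had an unadjusted p under 0.05. Leaving out 1 array gave 0 to 46, with 46 when mesonephros-derived replicate 1 was dropped, 3 when replicate 2 was, and 0 for replicate 3 or any ovary-derived array (638 to 2432 at an unadjusted p under 0.05 in those 4). The median of the tested genes ranged from −0.26 to 0.041 when 1 array was left out, with 0.041 over the 35 genes then tested, and was above 0 only without mesonephros-derived replicate 1. Of 395 values of single genes, 372 kept their side of 0. Quantile normalization turned B2m to −0.21 and Ifitm3 to −0.064, and median centring turned Jak1 to 0.066. Averaging probe sets gave −0.11 for Ifnar1, −0.10 for Ifnar2, 0.081 for H2-D1 and 0.24 for Xaf1. Array weights gave 0.061 for Jak1. The spike covariate, which cannot be fully separated from the group, gave 0.29 for Jak1, 0.063 for Xaf1 and −0.18 for B2m. With 1 array left out, ranges were −1.60 to 0.79 for Ifit1, −0.13 to 0.30 for Ifnar1, −0.092 to 0.16 for Ifnar2, −0.10 to 0.095 for Jak1, −0.013 to 0.16 for Irf9 and −0.026 to 0.27 for Stat2. The cause was not tested. Deviations of same-numbered samples correlated at −0.00048, 0.071 and −0.010. With 3 arrays per group, these values cannot settle whether the numbers pair the samples, and nothing in the labels says that they do. With a replicate block 4 genes and 0 of the 40 passed. Dim signal limits Dhx58, Oasl1, Mx1 and Mx2.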

Other observations

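A probe set shared by Isg15 and Gm9706, and so not assigned to either, had 862, 963 and 954 in mesonephros-derived and 768, 659 and 1050 in ovary-derived replicates, with overlap. A probe set shared by H2-K1 and H2-D1 had 270, 394 and 235 in mesonephros-derived and 243, 382 and 374 in ovary-derived replicates, also with overlap.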
